A study of Mus musculus with 24 samples.

Results

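The 38 listed genes of the mouse Hox clusters were followed in 24 poly(A)+ RNA libraries of cells differentiating along the neural lineage. Members were the rows of the expression table that carry one of the listed gene symbols, 38 of the 22667 genes listed, and 37 of them passed the filter on low counts that left 16627 genes for testing. Hoxd12, which did not pass, had at most 7 counts in any library. The HoxA cluster contributed 10 members, HoxB 10, HoxC 9 and HoxD 9.

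Wild-type (WT) cells were compared with slow/slow cells, in which both alleles of Polr2a, which encodes the largest subunit of RNA polymerase II, carry an arginine-to-histidine substitution that lowers the elongation rate. Both came from E14 mouse embryonic stem cells (ESCs), and the slow/slow line was made by 2 successive rounds of gene targeting, so it stands for an edited line rather than for several independent ones. There were 3 replicates, described as independent differentiation experiments, of each genotype as ESCs in 2i medium with LIF, as neural progenitor cells (NPCs) at day 7 in serum-free adherent culture, as PSA-NCAM+ cells at day 10, and as mature neurons replated at day 7 and grown for 14 more days. For differentiation, WT cells had been plated at 10000 and slow/slow cells at 30000 cells per cm2, so that plating density and genotype cannot be told apart after the ESC stage.

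Hox genes encode homeodomain transcription factors that give cells their position along the head-to-tail axis. Their order along each cluster mirrors the order in which they are switched on and the level of the body at which they act. Genes with low paralogue numbers (1 to 3, 7 members) mark the hindbrain, those numbered 4 to 8 (15 members) the caudal hindbrain and trunk, and those numbered 9 to 13 (16 members) the lower trunk and tail. Retinoic acid induces the low-numbered genes, Cdx proteins and Wnt and Fgf signals the trunk genes, and Polycomb complexes hold the clusters silent in stem cells. Hox proteins bind DNA together with cofactors of the TALE class, the Pbx and Meis proteins.

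Total counts per library ranged from 32974432 to 104466886. Levels are given as CPM (counts scaled to library size, with TMM factors), changes as log2 of slow/slow over WT with the standard error (SE), and a gene was called changed at a false discovery rate (FDR) under 0.05 in edgeR's quasi-likelihood test over all genes. The PSA-NCAM+ libraries numbered 1 stood apart in both genotypes, with a mean correlation to the rest of their own group of 0.9819 in WT, where the other libraries had 0.9895 and 0.9896, and of 0.9665 in slow/slow cells, where the others had 0.9827 and 0.9809. At the other stages it was between 0.9979 and 0.9989. The mutated gene itself was not called changed in ESCs, NPCs or PSA-NCAM+ cells and was 1.92-fold lower in slow/slow neurons (168 against 323 CPM, log2 −0.94 ± 0.16, FDR 7.76e-05). Its level does not check the genotype label, since the substitution need not alter the amount of RNA. In bulk samples such as these, fewer cells expressing a gene and less RNA per cell cannot be told apart.

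Promoter windows in RefSeq (GRCm38.p6) were found for 22 of the 38 members, and 3 of them are shown: Hoxa2 (chr6:52164832-52165081, minus strand), Hoxb1 (chr11:96365508-96365757, plus strand) and Hoxb8 (chr11:96281655-96281904, plus strand). These genes were higher in slow/slow NPCs, but they were not picked by the size of the increase alone. Hoxa9 and Hoxa10, which rose more there than Hoxb1, are not shown. Each line holds the 250 bases upstream of the start site, 5′ to 3′ on the strand of the gene. Capitals mark matches on either strand to TGATNNAT, the composite site of Hox and Pbx proteins, or to TTTATG, the core recognised by Cdx proteins.
Hoxa2: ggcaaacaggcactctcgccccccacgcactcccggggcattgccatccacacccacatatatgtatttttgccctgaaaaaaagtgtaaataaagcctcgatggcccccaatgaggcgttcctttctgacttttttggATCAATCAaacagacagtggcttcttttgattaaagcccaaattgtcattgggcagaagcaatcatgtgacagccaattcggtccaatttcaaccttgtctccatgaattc
Hoxb1: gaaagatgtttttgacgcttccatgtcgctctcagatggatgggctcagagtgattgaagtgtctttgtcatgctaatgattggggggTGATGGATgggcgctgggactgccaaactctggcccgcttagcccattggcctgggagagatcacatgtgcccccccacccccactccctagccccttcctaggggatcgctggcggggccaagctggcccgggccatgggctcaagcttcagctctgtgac
Hoxb8: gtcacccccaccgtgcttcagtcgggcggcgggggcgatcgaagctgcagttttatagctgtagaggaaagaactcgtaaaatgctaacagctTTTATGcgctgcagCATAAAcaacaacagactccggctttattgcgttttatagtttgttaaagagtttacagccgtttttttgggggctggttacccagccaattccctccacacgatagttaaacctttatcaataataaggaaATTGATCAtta
Among the 24 windows of the members, TGATNNAT occurred in 4 (of Hoxa2, Hoxb1, Hoxb8 and Hoxd11) and TTTATG in 5 (of Hoxa7, Hoxb8, Hoxd3, Hoxd4 and Hoxd11). The 3 windows shown are thus among the 4 with TGATNNAT and do not stand for the members. Across 32851 RefSeq promoter windows of the same length, 7.68% held TGATNNAT and 10.8% held TTTATG. Hoxb8 was the only one of the 3 genes shown with matches to TTTATG, which lay 157 and 143 bases upstream of its start site. A match to these letters is a description of the sequence and was not tested for binding.

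In WT cells the clusters went from low levels in ESCs, highest for some HoxC genes and Hoxb13, to broad expression in neurons. By the authors' mean RPKM, which allows genes of different length to be compared, the highest members in WT ESCs were Hoxc13 (10), Hoxc12 (6.73), Hoxc4 (5.28) and Hoxb13 (3.75), while Hoxb1, Hoxb2 and Hoxb3 were at 0.0367, 0.09 and 0.0533. In WT neurons the order had turned, with Hoxb2 (27.6), Hoxb3 (27.4), Hoxb9 (17.3), Hoxa2 (10.5) and Hoxb4 (10.2) at the top and Hoxc13 at 0.267. Slow/slow neurons had the same 4 leading genes in another order, Hoxb2 (60.8), Hoxa2 (53.5), Hoxb3 (41.7) and Hoxb9 (21). These RPKM values are the authors' means without an error, so neighbours in the order cannot be separated.

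From WT ESCs to WT NPCs, 7 of 37 members rose (34% of all genes tested) and 14 fell (31.6% of all genes). The members that rose were led by the anterior HoxB genes. Hoxb1, a hindbrain selector gene, went from 0.0912, 0.0287 and 0.144 CPM to 2.68, 3.02 and 2.59 CPM (log2 4.83 ± 0.74, FDR 1.01e-05), and Hoxb2 and Hoxb3 rose by 4.33 ± 0.65 and 4.19 ± 0.57 on the log2 scale (FDR 7.78e-06 and 2.35e-06). HoxC genes made up 8 of the 14 members that fell, with Hoxc12 going from a mean of 7.17 to 0.0841 CPM and Hoxc13 from 26 to 6.59 CPM. From WT NPCs to WT neurons, 23 members rose (41.4% of all genes) and 8 fell (38.9% of all genes). All 7 members numbered 1 to 3 and 13 of 15 numbered 4 to 8 rose, whereas 8 of the 15 tested members numbered 9 to 13 fell. Hoxb8 rose from a mean of 0.166 to 12.1 CPM (log2 6.18 ± 0.77) and Hoxc8 from 0.175 to 16 CPM (log2 6.52 ± 0.62), both trunk genes, while Hoxc13 fell from 6.59 to 0.642 CPM.

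**Figure D1:**
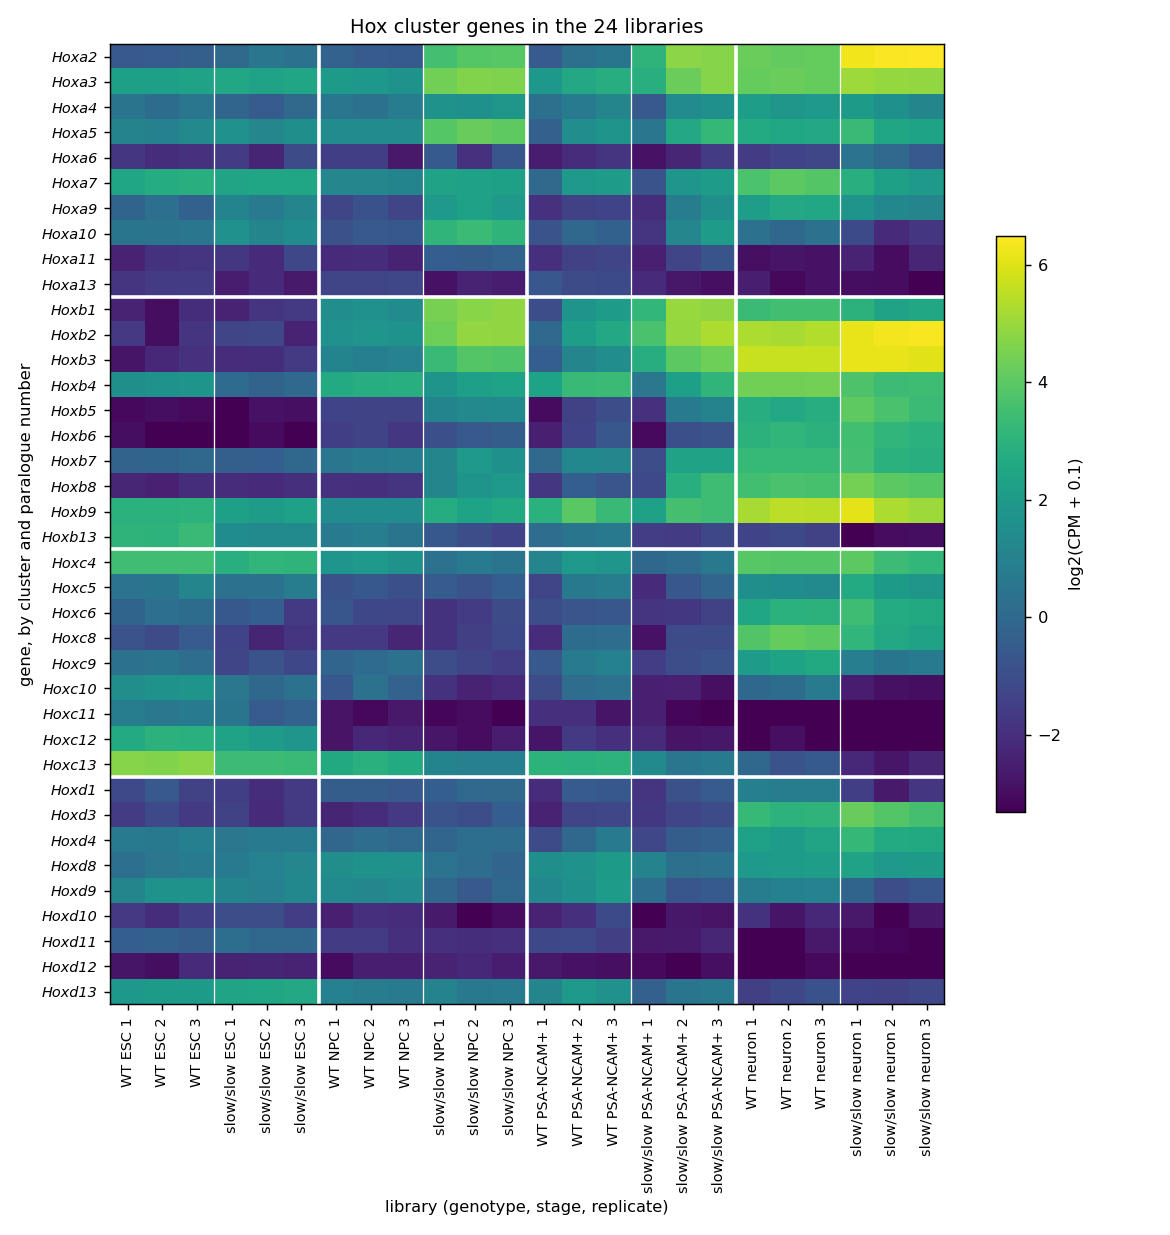
Level of each of the 38 Hox genes (rows, by cluster and paralogue number) in each of the 24 libraries (columns, by stage, genotype and replicate), coloured by log2(CPM + 0.1). Anterior HoxA and HoxB genes are bright in slow/slow NPCs and dark in WT NPCs, and most members numbered 1 to 8 are bright in neurons of both genotypes. For most HoxA and HoxB genes the PSA-NCAM+ libraries numbered 1 are darker than the other PSA-NCAM+ libraries of their genotype. For some HoxC and HoxD genes, such as Hoxc13 and Hoxd8 in slow/slow cells, they are brighter.

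In slow/slow NPCs 13 of the 20 HoxA and HoxB members were higher than in WT NPCs and 2, Hoxa13 and Hoxb13, were lower. Of the 37 members tested, 14 were higher in slow/slow NPCs (29.3% of all genes tested were) and 8 were lower (27.4% of all genes). Of the members numbered 1 to 3, 6 of 7 were higher, with a median log2 change of 2.71 against 0.01 over all genes. Summed over those 7 genes, the level was 13.3, 13.2 and 12.2 CPM in the WT libraries and 85.7, 111 and 113 CPM in the slow/slow libraries. Comparing the stages within slow/slow cells, 16 members rose from ESCs to NPCs (33.9% of all genes) and 12 fell (28.4% of all genes), and all 7 members numbered 1 to 3 were among those that rose.

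Hoxa2, which patterns the second rhombomere and the cranial neural crest behind it, had the largest change of any member. It stood at 0.749, 0.619 and 0.585 CPM in WT and at 11.7, 14.7 and 15.4 CPM in slow/slow NPCs, a 21.5-fold difference (log2 4.43 ± 0.35, FDR 5.01e-09). Every slow/slow library was above every WT library by a wide margin. Hoxb1, the selector gene of the fourth rhombomere, was at 2.68, 3.02 and 2.59 CPM in WT and 22, 26.7 and 28.6 CPM in slow/slow NPCs (log2 3.22 ± 0.52, FDR 3.29e-05). For Hoxb2, a target of Hoxb1 in the hindbrain, the values were 3.02, 3.35 and 3.19 CPM in WT and 19.9, 29.7 and 29.2 CPM in slow/slow NPCs (log2 3.04 ± 0.45, FDR 1.37e-05). In both genes slow/slow replicate 1 was the lowest of its group and still well above WT. Hoxb3 rose from 2.04, 1.8 and 1.93 to 9.83, 14.4 and 13.7 CPM (log2 2.71 ± 0.37, FDR 4.71e-06). Hoxa3, which acts in the caudal hindbrain and the pharyngeal arches, rose from 4.01, 3.65 and 3.15 to 21, 24.5 and 24.1 CPM (log2 2.69 ± 0.3, FDR 4.4e-07). The GENCODE span of Hoxa3 covers Hoxa4, Hoxa5 and Hoxa6, so reads of these genes may be shared between them. Hoxd3 was also higher, though at a low level, with 0.104, 0.136 and 0.21 against 0.466, 0.406 and 0.665 CPM (log2 1.72 ± 0.39, FDR 0.001). Its GENCODE span is 36516 bases, and whether it shares reads with Hoxd4, for which no coordinates were used here, was not tested. Hoxd1 was the one member of the group that was not called (log2 0.43 ± 0.44, FDR 0.416).

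In the trunk group, numbered 4 to 8, 4 of 15 members were higher in slow/slow NPCs and 2 were lower. These shares of 26.7% and 13.3% lie below those over all genes tested, 29.3% and 27.4%. Hoxa5, which acts at cervical and upper thoracic levels, rose from 2.56, 2.57 and 2.53 to 14.9, 18.4 and 16.7 CPM (log2 2.7 ± 0.49, FDR 0.000122). Hoxb8 rose from 0.166, 0.151 and 0.18 to 2.15, 3.32 and 3.89 CPM (log2 4.21 ± 0.75, FDR 9.94e-05), and Hoxb5 from 0.291, 0.302 and 0.3 to 2.04, 2.34 and 2.46 CPM (log2 2.92 ± 0.6, FDR 0.000367). The genotypes did not overlap in any of these genes. The fourth was Hoxa4 (log2 1.21 ± 0.37, FDR 0.00941). Hoxc4 went the other way, at 3.49, 3.83 and 3.12 CPM in WT and 1.19, 1.58 and 1.26 CPM in slow/slow NPCs (log2 −1.38 ± 0.23, FDR 4.49e-05), and Hoxd8 was lower as well (log2 −1.52 ± 0.22, FDR 1.15e-05). Hoxa7, at 2.2, 2.22 and 2.07 against 4.88, 4.77 and 4.73 CPM, missed the threshold (log2 1.15 ± 0.49, FDR 0.0531), and Hoxc8 stayed at or below 0.345 CPM in both genotypes.

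The posterior group, numbered 9 to 13, held members that changed in either direction. Higher in slow/slow NPCs were Hoxa9, Hoxa10, Hoxa11 and Hoxb9, a share of 26.7% against 29.3% of all genes tested. Lower were Hoxa13, Hoxb13, Hoxc9, Hoxc10, Hoxc13 and Hoxd9, a share of 40% against 27.4% of all genes. The median log2 change over the 15 tested genes was −1.49. Hoxa10, a lumbar-level gene, was at 0.437, 0.573 and 0.555 CPM in WT and 8.54, 10.1 and 8.18 CPM in slow/slow NPCs, a 17-fold difference (log2 4.09 ± 0.59, FDR 9.33e-06). Hoxa9 rose from 0.312, 0.453 and 0.315 to 3.71, 4.77 and 3.89 CPM (log2 3.5 ± 0.55, FDR 2.59e-05). Both genes were uniformly low in the WT replicates and uniformly high in the slow/slow replicates. Hoxb9 rose less, from 2.54, 2.64 and 2.58 to 6.7, 5.06 and 6.04 CPM (log2 1.2 ± 0.3, FDR 0.00226). In contrast, the terminal gene Hoxc13 was at 6.16, 7.33 and 6.28 CPM in WT and 2.06, 1.84 and 1.82 CPM in slow/slow NPCs (log2 −1.79 ± 0.21, FDR 7.37e-07), and the terminal gene Hoxb13 at 1.56, 1.71 and 1.26 against 0.543, 0.406 and 0.296 CPM (log2 −1.82 ± 0.25, FDR 5.51e-06). Thus the highest-numbered members called higher were Hoxa11 in HoxA and Hoxb9 in HoxB, and number 13 was lower in both. The increase was not continuous along either cluster, since Hoxa6, Hoxa7, Hoxb6 and Hoxb7 were not called. Hoxb4 stood at 6.3, 6.87 and 7.08 CPM in WT and at 3.29, 4.49 and 5.13 CPM in slow/slow NPCs. It lay lower in every slow/slow library and was not called. Hoxc9 was at 0.811, 0.981 and 1.18 against 0.401, 0.31 and 0.246 CPM (log2 −1.6 ± 0.36, FDR 0.00086), and Hoxc10 had the largest decrease (log2 −2.59 ± 0.45, FDR 7.75e-05).

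**Figure D2:**
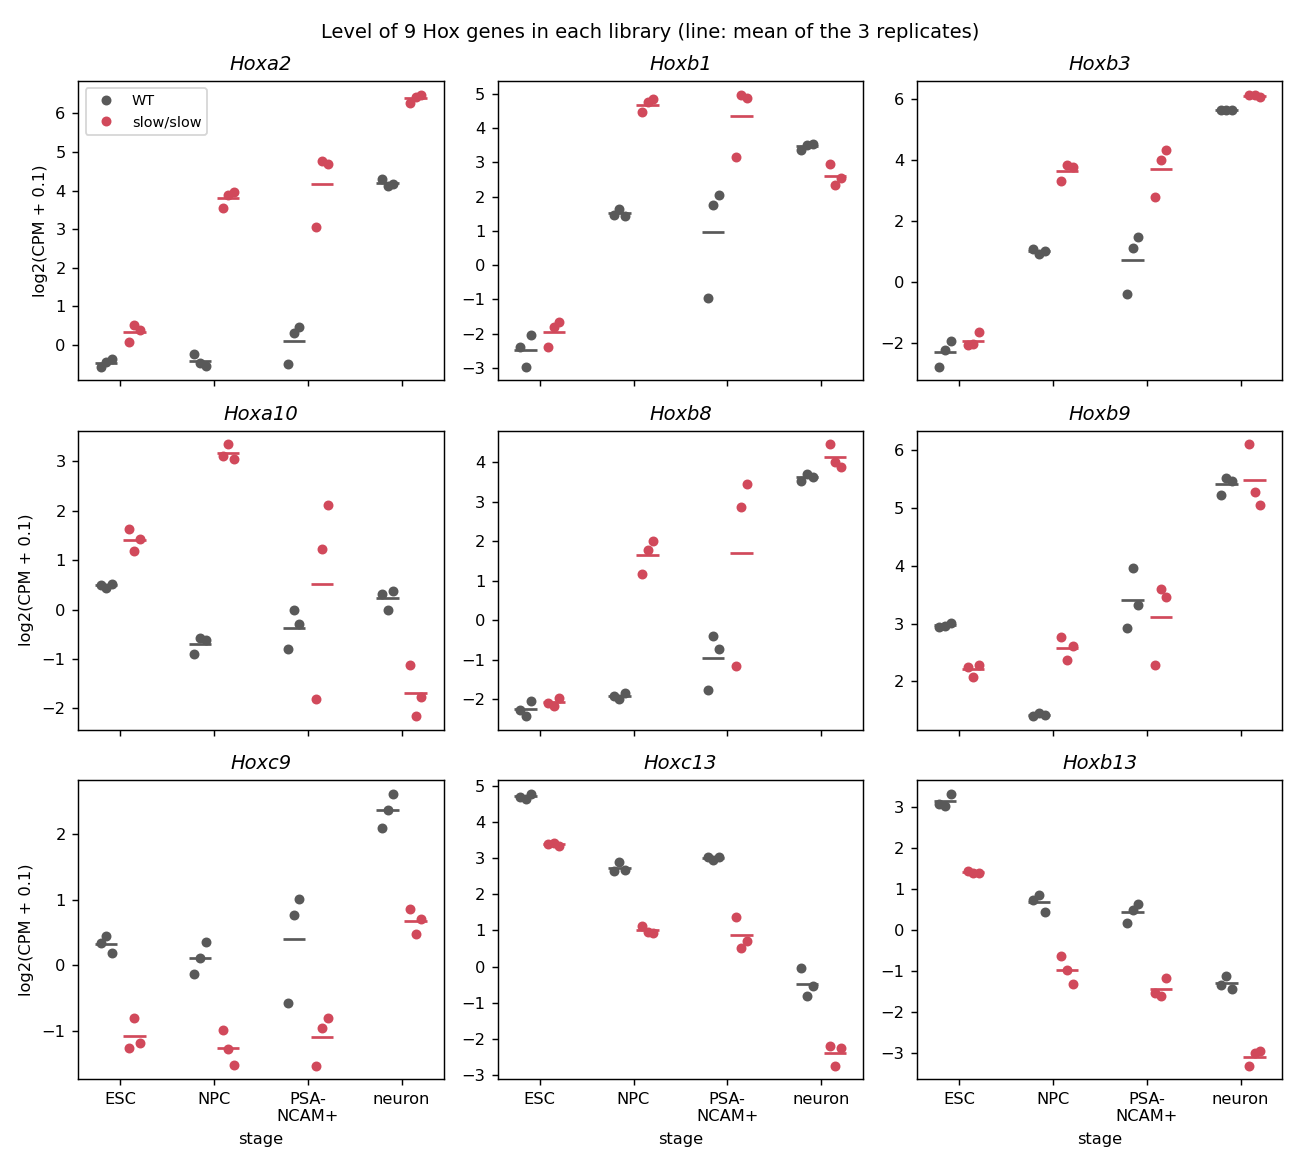
Level of 9 Hox genes, as log2(CPM + 0.1), at the 4 stages in WT (grey) and slow/slow (red) libraries, with a line at the mean of the 3 replicates on that scale. Hoxa2, Hoxb1, Hoxb3, Hoxa10 and Hoxb8 separate by genotype in NPCs, with slow/slow libraries above WT, whereas Hoxc9, Hoxc13 and Hoxb13 lie lower in slow/slow libraries at every stage and Hoxa10 changes side in neurons.

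By cluster, 7 of 10 HoxA and 6 of 10 HoxB members were higher in slow/slow NPCs, against 1 of 8 tested HoxD members (29.3% of all genes tested were). Lower were 1, 1, 2 and 4 members of HoxA, HoxB, HoxD and HoxC (27.4% of all genes). Of the other tested genes on chromosome 15, which carries HoxC, 60.6% were lower and 8.25% higher in slow/slow NPCs. The part of this in the HoxC counts was not tested. The HoxC members with a positive log2 change, Hoxc5 and Hoxc8, were not called (0.32 ± 0.53 and 0.52 ± 0.7). The cell type markers moved with these results. Of 6 pluripotency genes, 4 were lower in slow/slow NPCs (summed level 2190 to 2270 CPM in WT, 1430 to 1640 CPM in slow/slow), 4 of 5 neural progenitor genes and 5 of 6 neuronal genes were higher, and none of the pluripotency genes was near 0 in either genotype. Pax6, which marks neural progenitors, was at 4.18, 4.07 and 4.63 CPM in WT and at 36.4, 43.8 and 42.4 CPM in slow/slow NPCs, whereas Esrrb, a pluripotency gene, was at 474, 506 and 454 against 104, 91.7 and 83.2 CPM. The part of these differences in cell state in the Hox results was not tested.

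In mature neurons the genotype effect lay below that in NPCs for 6 of the 7 members numbered 1 to 3 by the interaction term of the same model (30.4% of all genes tested were lower by it), and 6 posterior genes were lower in slow/slow cells. Here 5 of 37 members were higher in slow/slow cells (23.4% of all genes tested) and 9 were lower (28.4% of all genes), with a median log2 change of −0.27 against −0.06 over all genes. The members that were higher were Hoxa2, Hoxa3, Hoxa6, Hoxb2 and Hoxd3, 4 of which are numbered 1 to 3. Those that were lower were Hoxa7, Hoxa10, Hoxb13, Hoxc8, Hoxc9, Hoxc10, Hoxc13, Hoxd1 and Hoxd9, 6 of which are numbered 9 to 13. When only the 6 neuron libraries were fitted, 22 members passed, 10 of them higher, and Hoxb3, Hoxb5 and Hoxb8 were then among the higher and Hoxb1 and Hoxa9 among the lower.

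Hoxa2 again led the members that were higher, with 19.5, 17.3 and 17.9 CPM in WT and 77.5, 85.5 and 89.7 CPM in slow/slow neurons (log2 2.21 ± 0.29, FDR 3.24e-06). Hoxb2 stood at 39.2, 37 and 40.5 CPM in WT and 71.1, 79.4 and 83.1 CPM in slow/slow neurons (log2 1 ± 0.41, FDR 0.047), and this call was lost when any of the 6 neuron libraries was left out. Hoxa3 was at 17.8, 18.7 and 18 against 33.3, 30.8 and 30.1 CPM (log2 0.79 ± 0.28, FDR 0.0234). In all 3 genes the groups were tight and apart. A second row with the symbol Hoxa3, described below and left out of the counts, went the other way. It was at 5.71, 6.13 and 6.15 CPM in WT and 0.462, 0.324 and 0.247 CPM in slow/slow neurons. Hoxd3 was at 9.44, 8.01 and 8.22 against 18.4, 14.5 and 12.1 CPM (log2 0.81 ± 0.27, FDR 0.0173). The call of Hoxa3 was lost without WT replicate 1, WT replicate 3 or slow/slow replicate 1 (FDR 0.0604 to 0.0645), and that of Hoxd3 without WT replicate 2, WT replicate 3 or slow/slow replicate 1 (FDR 0.0603 to 0.105). Hoxb3, at 50.2 CPM in each of the 3 WT libraries, was at 70.7, 71.2 and 66.9 CPM in slow/slow neurons and was not called (log2 0.47 ± 0.33, FDR 0.237). Hoxb1 was at 10.1, 11.3 and 11.4 against 7.7, 4.98 and 5.67 CPM, with the slow/slow libraries now the lower ones (log2 −0.84 ± 0.48, FDR 0.152).

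Of the 15 trunk members, 12 were not called in neurons. Hoxb5 (6.77, 6.03 and 6.87 against 16.4, 12.7 and 10.2 CPM) and Hoxb8 (11.3, 12.8 and 12.3 against 21.8, 16 and 14.7 CPM) were above WT in every slow/slow library without passing the test (log2 1 ± 0.49, FDR 0.0947, and 0.53 ± 0.56, FDR 0.444). Hoxa5 (6.25, 5.81 and 5.96 against 9.74, 5.3 and 5.1 CPM) and Hoxc4 (15.3, 14.6 and 14.6 against 15.9, 10.5 and 9.04 CPM) overlapped between the genotypes, with slow/slow replicate 1 the highest of its group. Hoxa7 was the trunk gene of HoxA that fell, from 13.1, 16 and 14.6 to 7.07, 4.64 and 3.78 CPM (log2 −1.49 ± 0.48, FDR 0.0132). Hoxc8, a brachial and thoracic gene, fell from 14, 18 and 16 to 8.71, 5.95 and 4.88 CPM (log2 −1.29 ± 0.46, FDR 0.0235). The call of Hoxc8 was lost without WT replicate 2 or 3 or slow/slow replicate 2 or 3 (FDR 0.0511 to 0.092), and that of Hoxa7 without slow/slow replicate 3 (FDR 0.0574). Hoxa6 was higher at a level under 1.3 CPM (log2 1.69 ± 0.49, FDR 0.00644), which is 1 of 15 in this group.

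Of the 15 posterior members tested, 6 were lower in slow/slow neurons, a share of 40% against 28.4% of all genes tested. Hoxc10, which specifies lumbar motor neurons, was at 0.859, 0.995 and 1.6 CPM in WT and at 0.0745, 0.0373 and 0.0274 CPM in slow/slow neurons (log2 −4.52 ± 0.51, FDR 4.3e-07). Hoxc9, a thoracic gene, was at 4.19, 5.09 and 6.06 against 1.71, 1.29 and 1.53 CPM (log2 −1.76 ± 0.31, FDR 9.4e-05), and Hoxc13 at 0.875, 0.465 and 0.587 against 0.119, 0.0498 and 0.11 CPM (log2 −2.83 ± 0.32, FDR 3.69e-07). In all 3 genes every WT library was above every slow/slow library. Hoxa10, which had been 17-fold higher in slow/slow NPCs, was now lower, at 1.15, 0.899 and 1.19 against 0.357, 0.124 and 0.192 CPM (log2 −2.26 ± 0.63, FDR 0.00506). Hoxb13 had 69 counts over the 3 WT libraries and 3 over the 3 slow/slow libraries, a ratio of 18.3 with a 95% counting interval of 6 to 90.8. Hoxc11 had 0 counts in all 6 neuron libraries, which allows up to 3 counts in each. Hoxa9 (4.39, 5.94 and 5.67 against 3.28, 2.32 and 2.11 CPM; log2 −1.05 ± 0.47, FDR 0.0707) and Hoxb9 (37.2, 45.8 and 44 against 68.4, 38.7 and 32.9 CPM; log2 0.14 ± 0.28, FDR 0.692) were not called. Slow/slow replicate 1 was the highest for Hoxb9 and without it the change was −0.25. The anterior exception among the genes that fell was Hoxd1, at 1.76, 1.64 and 1.63 against 0.253, 0.0622 and 0.192 CPM (log2 −3.35 ± 0.5, FDR 1.22e-05).

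**Figure D3:**
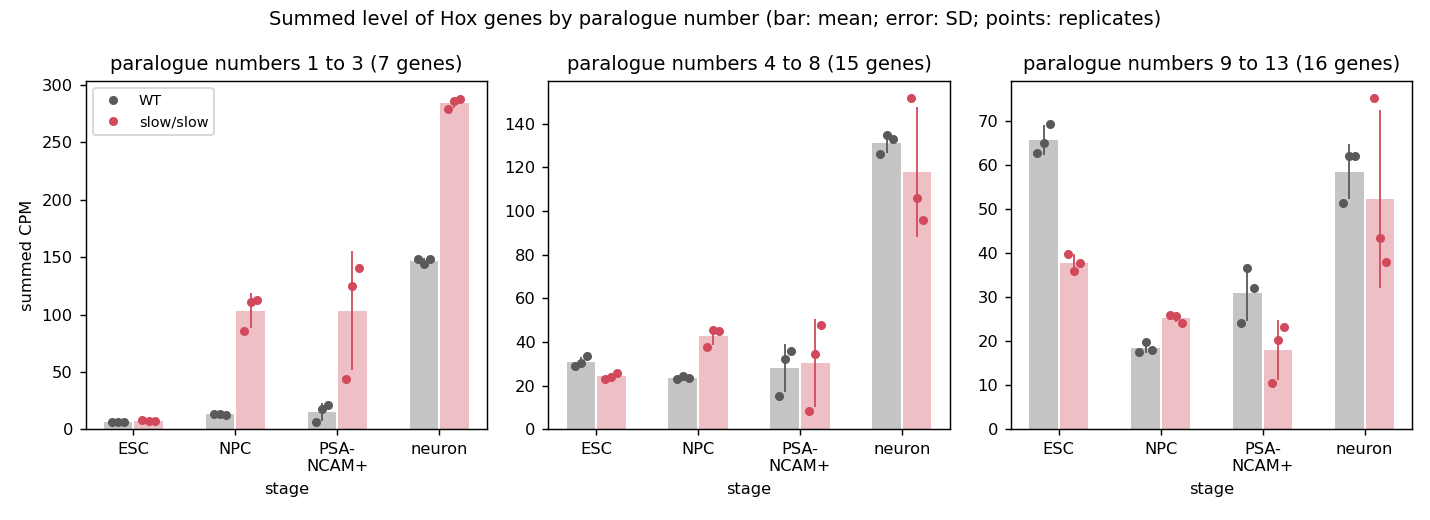
Summed CPM of the members numbered 1 to 3, 4 to 8 and 9 to 13 at the 4 stages in WT (grey) and slow/slow (red) cells. Bars are means, error bars the SD of 3 replicates and points the replicates. The sum of numbers 1 to 3 is 144 to 148 CPM in WT and 279 to 288 CPM in slow/slow neurons, while in PSA-NCAM+ cells the libraries numbered 1 lie lowest in each genotype.

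Within each genotype, the NPC to neuron step differed for the anterior genes. In slow/slow cells 18 members rose from NPCs to neurons (38.4% of all genes) and 11 fell (36.6% of all genes). The genotype effect in neurons minus that in NPCs was called for 19 members, 2 of them positive (24.7% of all genes) and 17 negative (30.4% of all genes). The negative ones included 6 of the 7 members numbered 1 to 3 and 7 of 10 in each of HoxA and HoxB. For NPCs minus ESCs, 9 members were positive (13.6% of all genes) and 3 negative (11% of all genes). Both contrasts use the same NPC libraries, so they are not independent of each other. Hoxb1 shows the difference in course: in WT cells it rose from 2.77 to 10.9 CPM between NPCs and neurons, and in slow/slow cells it fell from 25.8 to 6.12 CPM (difference of the log2 changes −4.06 ± 0.7, FDR 6.91e-05). For Hoxa10, the WT mean went from 0.522 to 1.08 CPM, which was not called, and the slow/slow mean fell from 8.95 to 0.225 CPM (difference −6.35 ± 0.85, FDR 3.87e-06).

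PSA-NCAM+ cells are named for polysialic acid on the adhesion molecule NCAM, a mark of immature neural cells. In them, 5 of 7 members numbered 1 to 3 were higher and 10 of 15 tested members numbered 9 to 13 lower in slow/slow cells. The libraries numbered 1 held less Hox RNA. The sum over the 38 genes was 45.8, 86.6 and 89.7 CPM in WT and 62.7, 180 and 212 CPM in slow/slow cells. Of 37 members, 10 were higher in slow/slow cells (28.6% of all genes tested) and 13 were lower (28.1% of all genes). All 10 that were higher belong to HoxA or HoxB, and 10 of the 13 that were lower are numbered 9 to 13. Hoxa2 was at 0.613, 1.13 and 1.29 CPM in WT and 8.19, 27.2 and 25.8 CPM in slow/slow cells (log2 4.36 ± 0.34, FDR 3e-09). Hoxc10 fell from 0.37, 1.05 and 1.17 to 0.0817, 0.0853 and 0.0328 CPM (log2 −3.68 ± 0.48, FDR 2.18e-06). Neither gene overlapped between the genotypes, whereas Hoxa9, Hoxa10, Hoxa5, Hoxb5, Hoxb8 and Hoxc11 were called although their values overlapped. The calls of Hoxa5 and Hoxa10 were also lost without WT replicate 1 (FDR 0.11 and 0.0504) or slow/slow replicate 3 (FDR 0.19 and 0.143), and that of Hoxa5 without slow/slow replicate 2 (FDR 0.0532). Hoxb8, for instance, was at 0.197, 0.661 and 0.505 against 0.347, 7.19 and 10.7 CPM. The cell type markers differed at this stage too. Of 6 pluripotency genes, 4 were lower in slow/slow cells (summed level 1510 to 2050 CPM in WT, 778 to 821 CPM in slow/slow). All 5 neural progenitor genes (195 to 255 against 455 to 599 CPM, median log2 3.87) and all 6 neuronal genes (69.6 to 95.9 against 207 to 520 CPM, median log2 2.41) were higher. In WT ESCs these sums were above those in WT PSA-NCAM+ cells, at 400 to 407 and 206 to 251 CPM. They came there mostly from Sox2 and Stmn2, with means of 385 and 174 CPM. The part of these markers in the Hox values was not tested.

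Same-numbered PSA-NCAM+ libraries deviated together, so the comparison was also made with the replicate number as a block. Over all 24 libraries the block gave 10 higher and 15 lower, adding Hoxb4 and Hoxc5. Within the 6 PSA-NCAM+ libraries alone it gave 8 higher and 13 lower, and among the members lost there Hoxa9 and Hoxa10 had FDR 0.0579 and 0.299, while Hoxc11 and Hoxd10 did not pass the count filter. Fitted alone without a block, the 6 libraries gave 14 calls, 4 of them higher. Without both libraries numbered 1, 12 were higher and 18 lower, and all 23 members called with them were among these 30. Between NPCs and PSA-NCAM+ cells of WT genotype 3 members rose (21.8% of all genes), namely Hoxb9, Hoxc8 and Hoxd13, and 0 fell by edgeR's quasi-likelihood test (19.5% of all genes; also 0 at an unadjusted p under 0.05 and 0 by DESeq2). In slow/slow cells 0 rose by the same test (22.5% of all genes; 1 at an unadjusted p under 0.05 and 1 by DESeq2) and 5 fell (19.8% of all genes), all of them HoxA genes, Hoxa5, Hoxa6, Hoxa9, Hoxa10 and Hoxa11. These stage counts come from the fit without the block, although same-numbered slow/slow libraries also deviated together between these stages (correlations of 0.34, 0.28 and 0.16). Both stage counts changed by over 1.5 times without the libraries numbered 1, which were left out after seeing the data. Then 16 members rose in WT cells, and 7 rose and 7 fell in slow/slow cells.

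In ESCs no member was higher in slow/slow cells by edgeR's quasi-likelihood test (0 of 37 against 18.5% of all genes; 4 at an unadjusted p under 0.05, and 2 by DESeq2) and 8 were lower (21.9% of all genes), a share of 21.6%. The members that were lower were Hoxa13, Hoxb4, Hoxb9, Hoxb13, Hoxc6, Hoxc9, Hoxc10 and Hoxc13. Hoxb13 was at 8.33, 8.09 and 9.92 CPM in WT and 2.62, 2.5 and 2.51 CPM in slow/slow ESCs (log2 −1.79 ± 0.22, FDR 2.8e-06). Hoxc13 was at 25.7, 24.9 and 27.4 against 10.4, 10.6 and 9.97 CPM (log2 −1.33 ± 0.2, FDR 2.03e-05), and Hoxb4, an activator of haematopoietic self-renewal, at 2.87, 3.13 and 3.31 against 0.972, 0.777 and 0.929 CPM (log2 −1.8 ± 0.43, FDR 0.00206). These 3 genes were separated by genotype with little spread within a group. Hoxb9 was the weakest call (log2 −0.77 ± 0.3, FDR 0.0441) and was lost when any of the 6 ESC libraries was left out, and with the replicate number as a block it had FDR 0.0517. When only the 6 ESC libraries were fitted, 21 members passed, 8 of them higher. The summed level of the members numbered 9 to 13 was 62.6 to 69.2 CPM in WT and 35.9 to 39.8 CPM in slow/slow ESCs. Hoxc13 made up a large part of this, with means of 26 and 10.3 CPM. It lies with HoxC on chromosome 15, where 64.8% of the other tested genes were lower in slow/slow ESCs. The part of this in the sum was not tested.

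**Figure D4:**
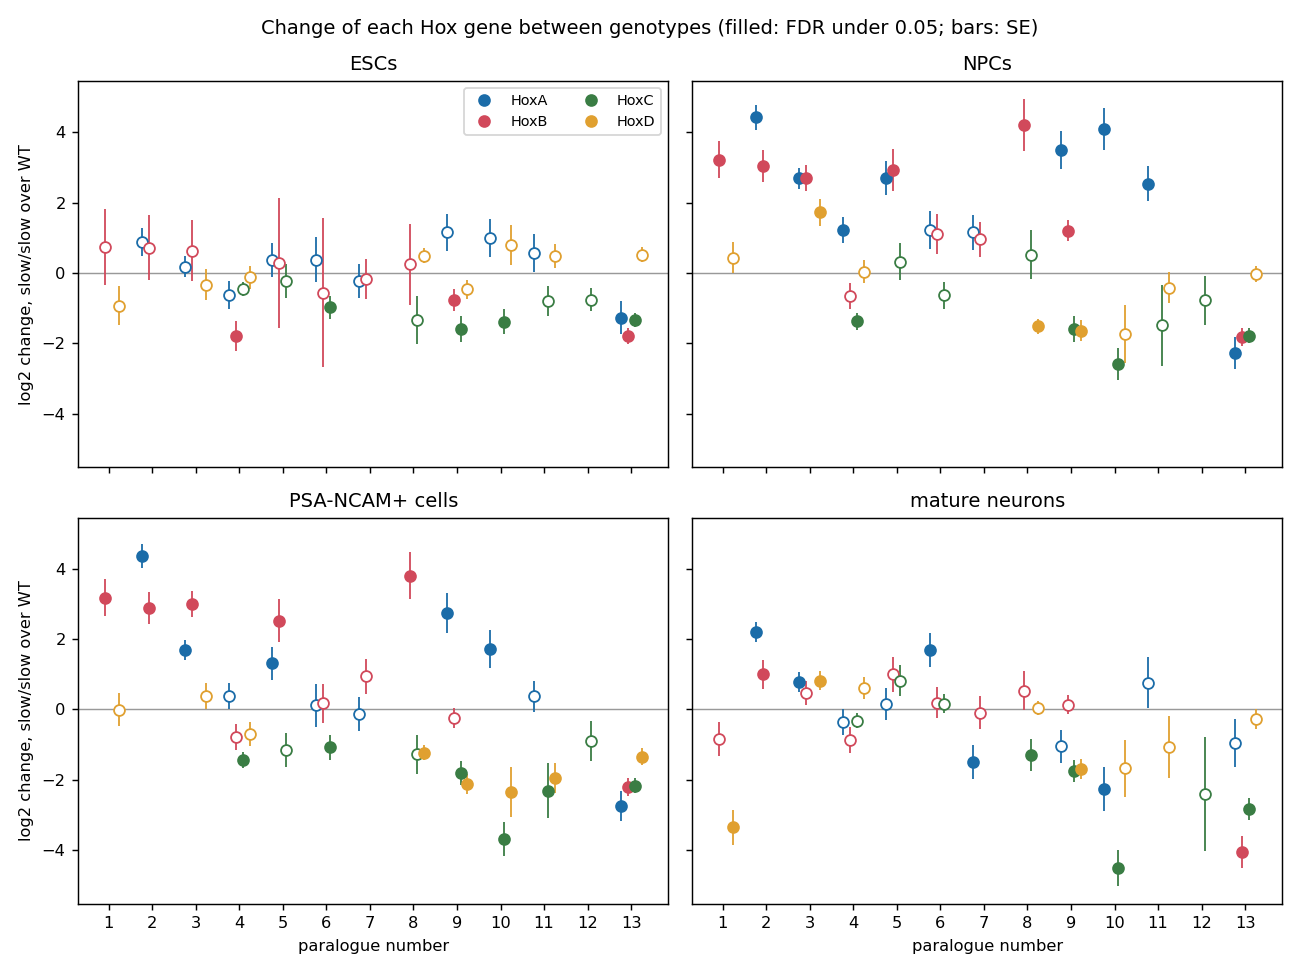
Log2 change of each tested Hox gene in slow/slow over WT cells against its paralogue number, in a panel per stage, with colours for the clusters, bars for the SE and filled points for an FDR under 0.05. In the 3 differentiated stages the filled points at low numbers lie mostly above 0 and those at high numbers mostly below 0, with Hoxa9, Hoxa10 and Hoxb8 above 0 in NPCs and PSA-NCAM+ cells and Hoxd1 below 0 in neurons.

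Across the 37 tested members, the rank correlation of the log2 change with the paralogue number started at −0.21 in ESCs and was −0.54, −0.64 and −0.52 in NPCs, PSA-NCAM+ cells and neurons, respectively. Genes of a cluster are neighbours that share regulation and libraries, so this is a description without a test. All HoxC members are numbered 4 to 13 and lie on chromosome 15, whose other genes were mostly lower in slow/slow cells before the neuron stage. The part of this shift in the correlations was not tested. The rank correlation of the change with the genomic span was between 0 and 0.14 at the 4 stages over the 36 tested members with GENCODE coordinates. Hox genes are short, with a median span of 3488 bases against 23164 bases over all genes tested. Each cluster lies in a compact block, HoxA on chromosome 6 over 98464 bases, HoxB on chromosome 11 over 173941 bases, HoxC on chromosome 15 over 115750 bases and HoxD on chromosome 2 over 96833 bases (GRCm38).

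Other genes on chromosome 15, which carries HoxC, were mostly lower in slow/slow cells before the neuron stage. They had a median log2 change of −0.60 in ESCs, −0.56 in NPCs and −0.55 in PSA-NCAM+ cells, where 64.8%, 60.6% and 61.6% of them were lower in slow/slow cells, against −0.08 and 29.2% in neurons. The medians of chromosomes 2, 6 and 11 lay between −0.11 and 0.05 at all 4 stages. Of the 22 tested genes within 500000 bases of HoxC, 16 were lower in ESCs, 14 in NPCs and 15 in PSA-NCAM+ cells, while in neurons 5 were lower and 10 higher. Relative to the chromosome median, Hoxc4 and Hoxc6 moved by 0.14 and −0.38 in ESCs, whereas Hoxc9 still differed by −1.01, Hoxc10 by −0.80 and Hoxc13 by −0.74. In NPCs these last 3 genes differed from it by −1.04, −2.03 and −1.22, and in neurons by −1.68, −4.44 and −2.76. How far the shift of the chromosome contributed to the HoxC values was not tested. Near the other clusters, 4 tested genes flanked HoxA, 18 HoxB and 3 HoxD, and in NPCs 1, 2 and 2 of them were higher and 1, 7 and 0 lower.

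Genes that act upstream of or with the Hox genes were counted in companion lists. Over all genes tested, 29.3% were higher and 27.4% lower in slow/slow NPCs, and 23.4% were higher and 28.4% lower in slow/slow neurons. Among 14 caudal and neuromesodermal factors, 7 were higher and 3 lower in slow/slow NPCs (median log2 0.68), and in slow/slow neurons 1 was higher and 13 were lower (median −2.79). Cdx2, an activator of trunk Hox genes, was at 49.7, 54.5 and 48 CPM in WT neurons and 3.07, 1.93 and 2.96 CPM in slow/slow neurons (log2 −4.27 ± 0.19, FDR 1.96e-12). Cdx1 was at 11.5, 12 and 10.6 against 0.0596, 0.0373 and 0.0548 CPM, and Cdx4 at 2.09, 2.71 and 1.8 against 0, 0.0124 and 0 CPM. In each of the 3 Cdx genes every slow/slow library was far below every WT library. T, the brachyury gene of the tail bud, fell from 77.2, 86.4 and 66.7 to 7.63, 6.47 and 6.82 CPM (log2 −3.46 ± 0.19), and Fgf17, a growth factor of the tail bud and the midbrain-hindbrain boundary, from a mean of 4.62 to 0.488 CPM. In NPCs Cdx1 was lower (log2 −1.66 ± 0.21, FDR 1.46e-06), Cdx4 was higher at under 0.4 CPM (log2 2.58 ± 0.64, FDR 0.00205), and Cdx2 was not called (log2 −0.4 ± 0.18, FDR 0.0617).

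Of 9 TALE cofactor genes, 6 were higher and 2 lower in slow/slow NPCs (median log2 0.82), against 2 higher and 1 lower in neurons (median −0.08). Meis2 was at 17.6, 17.8 and 16.8 CPM in WT and 93.8, 104 and 115 CPM in slow/slow NPCs (log2 2.58 ± 0.2, FDR 2.56e-09). Pbx3 and Meis1 were higher in NPCs by 1.85 ± 0.18 and 1.81 ± 0.26 on the log2 scale. In neurons Pbx3 was lower (log2 −0.67 ± 0.17, FDR 0.0022), and Meis1 and Meis2 were not called. The median over all genes was 0.01 in NPCs and −0.06 in neurons.

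Of 18 genes of the retinoic acid pathway, 9 were higher and 3 lower in slow/slow NPCs (median log2 0.67), and 10 higher and 3 lower in neurons (median 0.65). Crabp1, which binds retinoic acid in the cytoplasm and is induced by it, rose from 28, 26.9 and 26.1 to 374, 514 and 633 CPM in NPCs (log2 4.23 ± 0.27, FDR 3.76e-10). Cyp26b1, which degrades retinoic acid, rose from 27.4, 23.3 and 27.3 to 497, 560 and 567 CPM in neurons (log2 4.38 ± 0.29, FDR 4.78e-10). The genotypes were far apart in both. The receptor gene Rarg was lower at both stages (log2 −0.37 ± 0.13, FDR 0.0234, and −1.35 ± 0.14, FDR 1.3e-07). Of 19 measured chromatin regulators of the clusters, 10 were higher and 5 lower in NPCs and 6 higher and 2 lower in neurons. Their median log2 change was 0.27 in NPCs and 0.07 in neurons, against 0.01 and −0.06 over all genes. The Polycomb component Bmi1 was higher in NPCs (log2 1.5 ± 0.13, FDR 1.44e-08), the Polycomb reader Cbx7 was lower in NPCs (log2 −0.44 ± 0.11, FDR 0.0027) and in neurons (log2 −1.98 ± 0.12, FDR 1.38e-10), the boundary factor Ctcf was higher at both stages (log2 0.81 ± 0.11 and 0.46 ± 0.11), and the methyltransferase gene Ezh1 was lower in NPCs (log2 −1.16 ± 0.2, FDR 6.5e-05).

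Of 19 rostral neural factors, 10 were higher and 4 lower in slow/slow NPCs (median log2 0.93), and 8 were higher in slow/slow neurons (median 0.45). Egr2, which marks rhombomeres 3 and 5 and activates Hoxa2 and Hoxb2 there, was at 0.499, 0.407 and 0.495 CPM in WT and 4.67, 4.15 and 7.32 CPM in slow/slow NPCs (log2 3.52 ± 0.35, FDR 7.7e-08). In neurons it was not called (log2 −0.44 ± 0.29, FDR 0.214). The eye and forebrain gene Six6 was higher in NPCs (0.0832, 0.0302 and 0.075 against 2.99, 3.87 and 4.53 CPM), and the forebrain gene Lhx2 was lower in NPCs (log2 −0.93 ± 0.21) and higher in neurons (5.92, 4.2 and 5.24 against 39.8, 46.9 and 48 CPM, log2 3.13 ± 0.21). Dmbx1, a midbrain gene, took the same course as Lhx2 (log2 −0.63 ± 0.26, FDR 0.0418, and 3.13 ± 0.29, FDR 2.75e-08). Six6, a forebrain gene, and Egr2, a hindbrain gene, were thus both higher in slow/slow NPCs.

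Of 25 noncoding genes of the clusters in the list, 2 were in the table. Gm53 was lower in ESCs, PSA-NCAM+ cells and neurons, at 0.798, 0.947 and 1.06 against 0.149, 0.0373 and 0.0548 CPM in neurons (log2 −3.49 ± 0.32, FDR 2.93e-08). 5730596B20Rik was higher in slow/slow NPCs, at 0.125, 0.166 and 0.225 against 1.62, 1.98 and 2.09 CPM (log2 3.42 ± 0.35, FDR 1.21e-07). Their own calls at the other stages are counted in the same way, 1 lower in ESCs, and 1 higher and 1 lower in PSA-NCAM+ cells.

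Markers of other cells in the neuron cultures also differed by genotype. Of 7 mesenchyme genes all 7 were higher in slow/slow neurons (summed level 230 to 289 CPM in WT, 646 to 684 CPM in slow/slow), while of 7 glial genes 3 were higher and 3 lower (67.4 to 88.6 against 23.9 to 27.9 CPM), and of 6 neuronal genes 4 were lower (3430 to 3740 against 2740 to 2910 CPM). Of 3 neural crest genes, cells in which Hoxa2 is known to act, 3 were higher (11.9 to 14 against 27.6 to 32.4 CPM), and of 8 genes of spinal and hindbrain neurons 5 were higher and 1, Mnx1, was lower (180 to 204 against 315 to 365 CPM). Of 10 mesoderm genes 5 were higher and 3 lower (44.2 to 49 against 56.8 to 64.5 CPM), and of 7 tested endoderm genes 5 were higher and 2 lower (70.7 to 81.9 against 58.3 to 73.6 CPM). Of 5 neural progenitor genes 4 were higher and 0 lower (988 to 1180 against 1240 to 1430 CPM), among them Pax6 at 11, 12.8 and 13.1 CPM in WT and 75.9, 86.9 and 79.8 CPM in slow/slow neurons, and Hes5 at 12.1, 14.9 and 15.9 against 80.2, 107 and 114 CPM. Of 6 pluripotency genes 4 were higher and 1, Pou5f1, was lower (104 to 138 against 87.2 to 90.9 CPM). Among the neuronal genes, the synaptic genes Syn1 (236, 212 and 214 against 59, 59.7 and 62.3 CPM) and Snap25 (228, 203 and 194 against 61.9, 60.3 and 58.4 CPM) were lower, as were Stmn2 and Rbfox3 (log2 −1.11 ± 0.15 and −0.89 ± 0.23), whereas Dcx and Tubb3 were not called (log2 −0.19 ± 0.45 and 0.36 ± 0.31). The glial gene S100b was near 0 in all 6 libraries. Sox10 stands on both the glial and the neural crest list. The part of these cell types in the Hox values was not tested.

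Splicing of the members could be read only where they were expressed. The splicing table listed 5 exon and 44 intron events in these genes. Of these, 0 exon events and introns of 8 members passed the coverage and balance filters in all 6 libraries of a stage, 8 introns in neurons and 1, in Hoxb9, in PSA-NCAM+ cells. Retention of 2 of the 8 introns in neurons differed by more than 10 points without overlap (0.442% of all introns passing in neurons did), both lower in slow/slow neurons. These values have no test. The intron of Hoxb7 at chr11:96148442-96150690 (mm9) was retained in 24.6%, 28.6% and 22.2% of WT transcripts and 7.41%, 8.57% and 3.57% of slow/slow transcripts, from 29 to 124 reads a library. The intron of Hoxc6 at chr15:102840437-102841164 (mm9) was at 17%, 15.4% and 12.6% against 4.92%, 3.7% and 0%, from 22 to 107 reads a library. Neither gene was called at the level of expression in neurons (log2 −0.09 ± 0.47 and 0.16 ± 0.27). The intron of Hoxc4 went the other way by 7.28 points, from 9.63%, 7.94% and 4.93% to 18.7%, 13.1% and 12.5%. With at least 30 reads in every library, neither of the shifted introns was left.

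**Figure D5:**
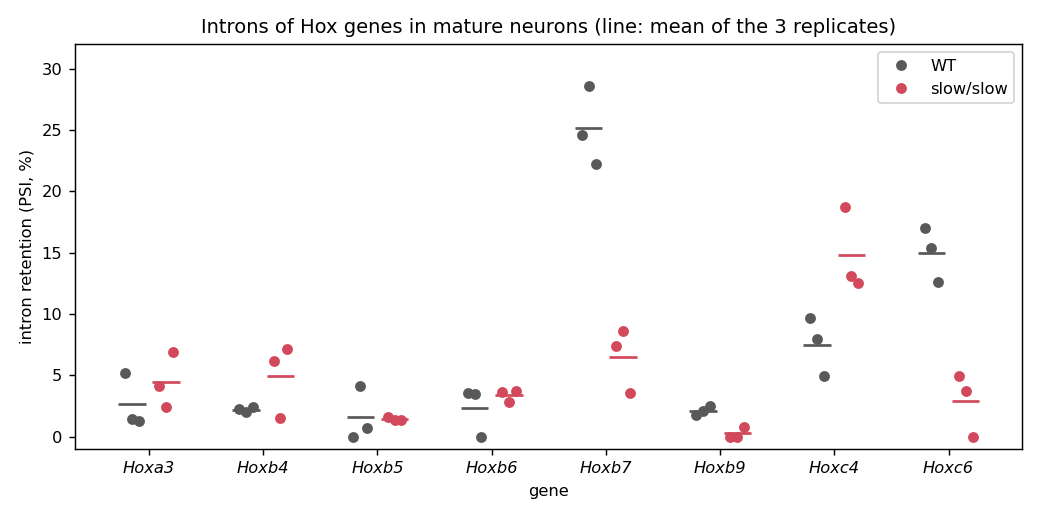
Percent of intron-retaining transcripts (PSI) for the 8 Hox introns that passed the filters in mature neurons, in WT (grey) and slow/slow (red) libraries, with a line at the mean of 3 replicates. The introns of Hoxb7 and Hoxc6 are retained more in all 3 WT libraries, and the intron of Hoxc4 more in all 3 slow/slow libraries.

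The table held a second row with the symbol Hoxa3, under an identifier that GENCODE does not list. It was at 5.71, 6.13 and 6.15 CPM in WT neurons and 0.462, 0.324 and 0.247 CPM in slow/slow neurons (log2 −4.08 ± 0.4, FDR 6.79e-08) and at most 0.167 CPM at the other stages. This is opposite in direction to the main row of Hoxa3, and because the transcript behind it could not be told from the identifier, it entered none of the counts. Reads may also be shared at HoxC, where the span of Hoxc5 covers Hoxc6, Hoxc8, Hoxc9 and part of Hoxc10, and 9 of the 37 members with coordinates overlap another member in this way.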

How the data were processed

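Poly(A)+ RNA had been sequenced with a stranded kit from 24 samples, 3 for each of 2 genotypes at 4 stages. The deposited values were raw counts per gene, made by the authors from reads aligned to mm9, and whether counting used the strand is not given in the sources used here. The submitters' notes name bcl2fastq 2.17.1.14 and edgeR. The authors also deposited RPKM as means per group, and PSI in percent from vast-tools for exons and introns with read counts and quality scores. No normalized unit was tested.

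Counts were fitted with edgeR 4.0.16 (R 4.3.3): filterByExpr by group, TMM scaling, 1 model of 8 groups with 16 residual degrees of freedom, the quasi-likelihood F test and Benjamini-Hochberg adjustment over 16627 genes, called at FDR 0.05. The SE is the log2 change divided by the square root of F. Total counts ranged from 32974432 to 104466886 per library, and intervals and floors cover counting error only. The fit was tested on simulated data. The alternatives, among them DESeq2 1.42.0 and leaving out each library, are described in the closing section.

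Same-numbered replicates come from no stated common batch. Their deviations correlated between genotypes in PSA-NCAM+ cells (0.58, 0.57 and 0.46) and, in slow/slow cells, between PSA-NCAM+ cells and NPCs (0.34, 0.28 and 0.16), which was taken as pairing, and not in the other comparisons.

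Introns were kept with at least 15 reads and a balance p-value of at least 0.05, both as deposited by the authors, in all 6 libraries of a stage, and were counted as shifted at a mean PSI difference over 10 points without overlap. Sequences came from RefSeq, and gene spans from GENCODE (GRCm38), in which 20451 of 21553 genes with counts were matched. Members, gene lists and tests were chosen with earlier results of these data known. Members with a call in NPCs or neurons and a mean of 5 CPM in a group are given per library, with others added where a count or contrast names them. From each companion list at most 4 genes, those with the smallest p in NPCs or neurons, and every Cdx gene were named. Some genes that this rule would name are not reported here. Other genes were named after their values were seen.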

Additional observations from a re-analysis of the deposited data

Results flagged for a closer look

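The effect of the genotype on 12 of the 37 tested members differed between NPCs and ESCs by the interaction term of edgeR's quasi-likelihood test (3 replicates per group). It was more positive in NPCs for 9 members (13.6% of all genes tested) and more negative for 3 (11% of all genes). On the log2 scale, NPCs minus ESCs, the difference was 3.54 for Hoxa2 (FDR 5.8e-05), 2.51 for Hoxa3, 1.84 for Hoxa4, 2.33 for Hoxa5, 2.35 for Hoxa9, 3.1 for Hoxa10, 3.97 for Hoxb8 (FDR 0.0465), 1.97 for Hoxb9 and 2.05 for Hoxd3. The negative values were −0.92 for Hoxc4, −2.01 for Hoxd8 and −1.17 for Hoxd9.

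Between neurons and NPCs the same term was called for 17 members as more negative in neurons (30.4% of all genes) and for 2 as more positive (24.7% of all genes). It was most negative for Hoxa10, at −6.35 (FDR 3.87e-06), followed by −4.55 for Hoxa9, −4.06 for Hoxb1, −3.78 for Hoxd1 and −3.68 for Hoxb8. Hoxa7 and Hoxa5 differed by −2.64 and −2.54, Hoxb3 by −2.24, Hoxa2 by −2.22, Hoxb2 by −2.04, Hoxc10 by −1.93, Hoxb5 by −1.92, Hoxa3 by −1.9 and Hoxa4 by −1.58. Smaller differences were −1.06 for Hoxb9 and −1.05 for Hoxc13. For Hoxb13 the value was −2.23, which depends on the prior count because slow/slow neurons held 3 counts in all. The positive differences were 1.06 for Hoxc4 (FDR 0.00678) and 1.56 for Hoxd8 (FDR 0.00023). Both sets use the same NPC libraries.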

How the results depend on the processing

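The counts of members called moved by over 1.5 times mainly when only the groups compared were fitted. Such a fit has fewer residual degrees of freedom, its own gene filter and a spread estimated from those libraries alone. The model of 8 groups shares the spread of a gene over all stages, including the PSA-NCAM+ libraries, which correlated least within their groups. Fitted alone by the same quasi-likelihood test, Hoxb3 in neurons, not called in the shared model, had FDR 2.73e-07. Hoxb8 in PSA-NCAM+ cells, called in the shared model, had FDR 0.0555. With only the groups compared, the counts were 21 in ESCs (8 higher), 14 in PSA-NCAM+ cells, 22 in neurons, 0 for slow/slow PSA-NCAM+ cells against NPCs and 25 for the difference between NPCs and ESCs. Leaving out both PSA-NCAM+ libraries numbered 1, chosen after seeing the data, gave 16 for WT and 14 for slow/slow PSA-NCAM+ cells against NPCs. A threshold of 15 points left 1 shifted intron and a minimum of 30 reads 0. Leaving out each library in turn gave 5 to 7 calls between the genotypes in ESCs, 22 to 23 in NPCs, 10 to 12 in neurons and 20 to 25 in PSA-NCAM+ cells, 2 to 7 for WT and 2 to 10 for slow/slow PSA-NCAM+ cells against NPCs, and 2 to 3 introns. The members whose sign depended on 1 library were not called, and their log2 change ranged, over the libraries left out, from −0.48 (slow/slow replicate 2) to 0.89 for Hoxb5 in ESCs. In PSA-NCAM+ cells the range was −0.07 (WT replicate 1) to 0.73 for Hoxd3, −0.45 to 0.11 for Hoxb9 (0.11 and 0.09 without WT replicate 2 or slow/slow replicate 1) and −0.56 to 0.38 for Hoxa7 (0.12, 0.23 and 0.38 without WT replicate 2 or 3 or slow/slow replicate 1). In neurons it was −0.21 to 0.32 for Hoxa5 and −0.25 to 0.33 for Hoxb9, both lowest without slow/slow replicate 1. Blocking by replicate number, the counts between genotypes were 7 in ESCs, 23 in NPCs, 15 in neurons and 25 in PSA-NCAM+ cells. The block ended the call of Hoxb9 in ESCs and added Hoxa7 in NPCs (FDR 0.0467), where the samples share only a number. The block within the 6 PSA-NCAM+ libraries was also added after seeing the data. The cause of these differences was not tested. Over all alternatives that did not leave out a single library, 434 single-gene values kept their direction and side of the threshold, 20 passed it and 10 lost it. When single libraries were left out, 393 kept both, 2 passed the threshold, 28 lost it and 9 changed sign.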
